A study of Mus musculus with 6 samples.

Results

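The miRNA precursor entry mir-21a was examined in 6 small RNA libraries of a study that asked how fluid flow shear stress (FFSS), a mechanical stress, changes the extracellular vesicles (EVs) released by mouse muscle cells. It is 1 of 1006 entries and was chosen by its level, as the most abundant entry in these libraries, so its rank is a description and no result is drawn from it. The libraries were 1 of primary osteoblasts (OB), 1 of primary bone marrow cells (BM), 2 of EVs from unstressed C2C12 myoblasts (Myo-EVs) and 2 of EVs from C2C12 myoblasts under FFSS (FFSS-Myo-EVs). C2C12 is a mouse myoblast line. OB and BM came from mice of a mixed background, 81.25% C57BL/6J and 18.75% 129/SvJ, aged 8 to 10 weeks per the labels, although the methods describe osteoblasts from the skull bones of newborn mice. The labels give the same mixed background for the EV libraries, although the methods describe it for the mice only and obtained C2C12 from a culture collection. FFSS was applied by placing the culture plates on an orbital shaker, and the conditioned medium, which held serum depleted of its own EVs, was collected after 48 hr. The labels' growth protocol names vitamin D and dexamethasone instead of FFSS, which is given in the titles and as the stress. OB and BM are single libraries without a replicate error, and no source says whether the 2 EV libraries of a group came from separate cultures, so p-values measure only the spread between these libraries.

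miRNAs are short RNAs that guide Argonaute proteins to messenger RNAs, mainly through the seed at bases 2 to 8, and lower the output of those messages. miR-21 is among the most abundant miRNAs of many cultured mammalian cells, is induced by AP-1 and STAT3, and is best known for repressing inhibitors of growth signaling such as Pdcd4, Spry1 and Reck. In bone, it is known for promoting osteoclast differentiation, and in fibroblasts for its rise during fibrosis. A small RNA library holds a fixed number of reads, so an entry that takes a large share leaves fewer reads for all the others.

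The sequences show what the entry stands for and how its relatives differ. The seed is in capitals, and all were taken from RefSeq (GRCm38.p6), where each of the names was matched. The entry mir-21a pools both arms of the precursor, miR-21a-5p and miR-21a-3p, and the counts do not say which arm was read. miR-21b and miR-21c are its closest relatives by name, and let-7i-5p belongs to the entry that ranked second in 5 of the 6 libraries.
mmu-miR-21a-5p: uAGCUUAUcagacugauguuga
mmu-miR-21a-3p: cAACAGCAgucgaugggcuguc
mmu-miR-21b: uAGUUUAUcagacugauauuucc
mmu-miR-21c: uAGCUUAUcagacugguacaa
mmu-let-7i-5p: uGAGGUAGuaguuugugcuguu

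Counted from 1 at the 5′ end of miR-21a-5p, miR-21b differed at 4 of 22 aligned positions, C4U, G18A, G21U and A22C. The first of these lies in the seed. miR-21c differed at 5 of 21 aligned positions, A16G, G18A, U19C, U20A and G21A, all outside the seed. Among 1738 mature sequences in the RefSeq table, the seed of miR-21a-5p was found in miR-21a-5p and miR-21c alone, the seed of miR-21b in 1 sequence, and the seed of let-7i-5p under 11 names, including let-7a-5p, let-7g-5p and miR-98-5p.

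Mir21a lies at chr11:86584067-86584158 on the minus strand (GRCm38, GENCODE M21), with the 5p arm at chr11:86584120-86584141 and the 3p arm at chr11:86584082-86584103. It is inside Vmp1 (chr11:86583865-86683836, minus strand), the gene of a membrane protein of autophagy, on the same strand. More exactly, it falls in the untranslated part (chr11:86583865-86585310) of exon 12, the last exon of the annotated transcript, whose exon 12 spans chr11:86583865-86585451. Mir21b lies at chr3:29636744-29636851 on the plus strand, within the bounds of Egfem1, and Mir21c at chr8:128278148-128278225 on the minus strand, with no other gene overlapping it.

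The mir-21a count was 1119135 of 5181296 in OB and 2734612 of 6092460 in BM. It was 669679 of 2871364 and 502872 of 2414132 in Myo-EVs, and 610686 of 3029524 and 550191 of 2656119 in FFSS-Myo-EVs. As a share of all counts, this was 21.6% in OB (exact Clopper-Pearson 95% interval 21.56% to 21.63%) and 44.9% in BM (44.85% to 44.92%). The share was 23.3% (23.27% to 23.37%) and 20.8% (20.78% to 20.88%) in Myo-EVs, and 20.2% (20.11% to 20.2%) and 20.7% (20.67% to 20.76%) in FFSS-Myo-EVs. The BM library stood far above the other 5, which lay within a narrow band with OB between the 2 Myo-EV libraries. The intervals are narrow because the counts are large. They cover counting error only, as reads copied by PCR and lacking molecular identifiers do not each stand for 1 molecule. The spread between the Myo-EV libraries, 2.49 percentage points, is much wider than either of their intervals.

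**Figure D1:**
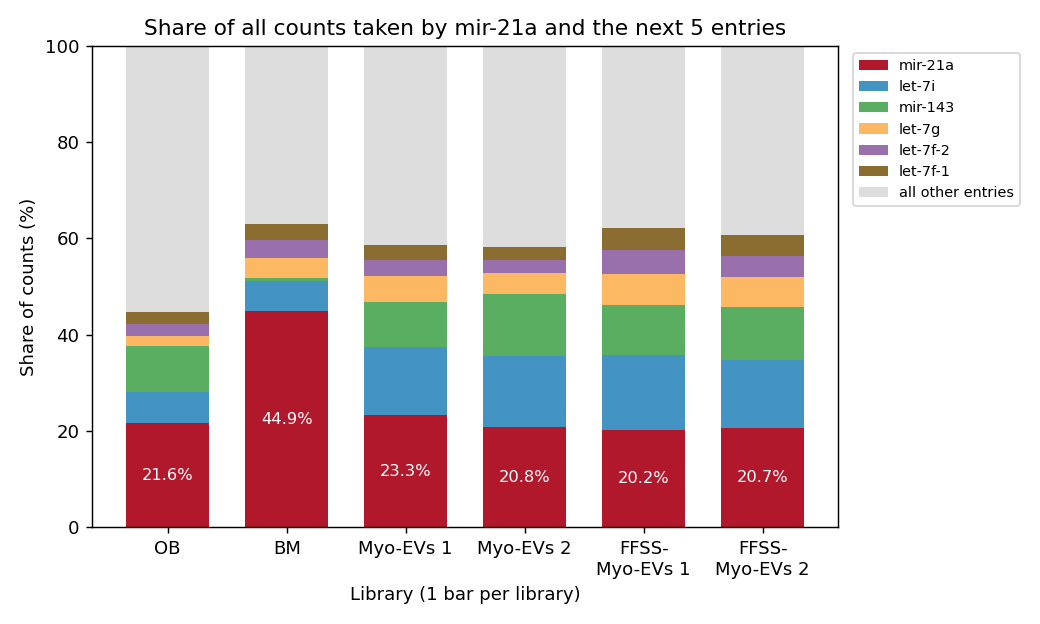
Share of all counts (%, vertical axis) taken by mir-21a and by the next 5 entries by mean share, with 1 bar for each of the 6 libraries and all other entries in grey. mir-21a takes 44.9% of the BM bar and between 20.2% and 23.3% of the other 5 bars, while mir-143 takes 0.646% of the BM bar.

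mir-21a ranked first in each library, but the entry below it differed. In OB the second entry was mir-143, known as a miRNA of smooth muscle and mesenchymal cells, with 9.42% of the counts, and mir-21a was 2.29 times as high. In BM the second entry was let-7i, a let-7 miRNA linked to differentiation, with 6.20%, and mir-21a was 7.24 times as high. let-7i was also second in the EVs, with 14.1% and 14.7% in Myo-EVs, with 15.6% and 14.0% in FFSS-Myo-EVs. mir-21a was 1.66 and 1.41 times let-7i in Myo-EVs and 1.29 and 1.48 times in FFSS-Myo-EVs. The lead of mir-21a over the second entry was thus longest in BM and shortest in the EVs. mir-143, at 0.646% in BM and between 9.52% and 12.9% in the EVs, was exceeded by mir-21a 69.5 times in BM and 1.62 to 2.45 times in the EVs. Next by mean share were let-7g and let-7f-2, and mir-21a was 3.11 to 10.8 times let-7g and 4.12 to 12.2 times let-7f-2 over the 6 libraries.

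The share of mir-21a also depends on how entries that are copies of each other are counted. The sources used here do not say how reads were shared between copies. let-7f-1 and let-7f-2, for example, are separate entries with the same 5p mature sequence, and each took between 2.39% and 4.89% of the counts. When 1 entry was kept for each miRNA name, the share of mir-21a was 23.9% in OB, 48.5% in BM, 25.7% and 22.6% in Myo-EVs, with 22.5% and 23.1% in FFSS-Myo-EVs. On that total, the EV groups overlapped, the Myo-EV library of 22.6% falling between the FFSS-Myo-EV libraries. If reads were split between copies, that total leaves out part of their counts.

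The evenness of a library was given by the effective number of entries, 1 over the sum of the squared shares, which is the number of equally abundant entries that would be as concentrated. It was 13.4 in OB, 4.66 in BM, 10.5 and 10.8 in Myo-EVs, with 11.2 and 11.5 in FFSS-Myo-EVs. With mir-21a left out, it was 22.1 in OB, 23.3 in BM, 14.5 and 12.8 in Myo-EVs, with 13.2 and 14.2 in FFSS-Myo-EVs. BM was thus the least even library with mir-21a and the most even one without it. mir-21a alone made up 93.9% of the sum of squared shares in BM, 62.6% in OB and between 45.6% and 57.3% in the EVs. The number of entries that together reached 50% of the counts was 2 in BM, 6 in OB and 4 in each EV library. Without mir-21a, 9 entries were needed in BM, 8 in OB, and 6 and 5 in Myo-EVs, with 5 and 5 in FFSS-Myo-EVs.

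**Figure D2:**
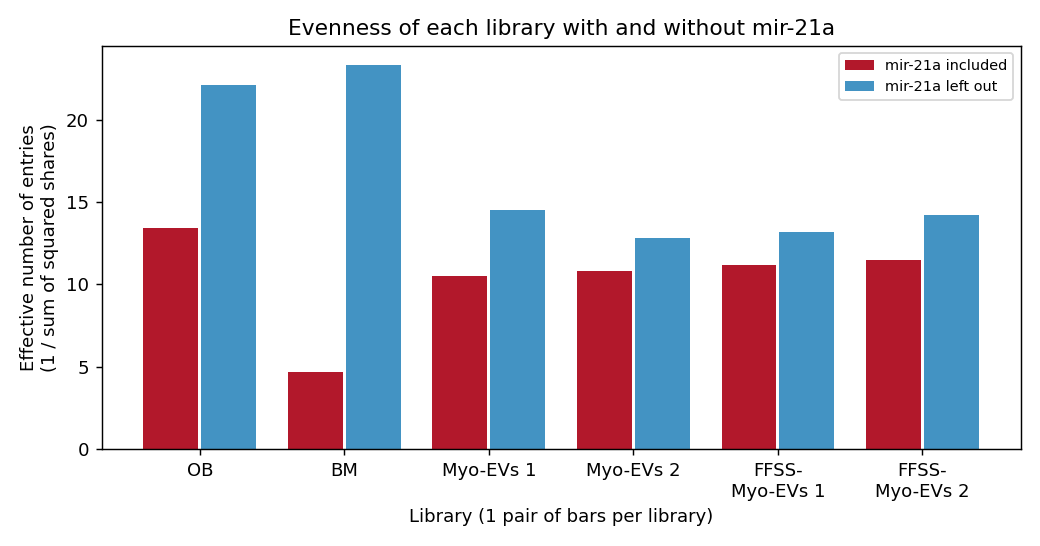
Effective number of entries (1 over the sum of squared shares, vertical axis) in each of the 6 libraries, with mir-21a included (red) and left out (blue). The BM pair goes from 4.66, the lowest red bar, to 23.3, the highest blue bar, whereas the EV pairs differ by less than the OB pair.

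On the authors' normalized expression values, which are the counts times 1 constant per library, mir-21a was at 618042 in OB, 1086138 in BM, 672242 and 602278 in Myo-EVs, with 608366 and 609345 in FFSS-Myo-EVs. The order from the top was BM, then the first Myo-EV library, then OB, then the FFSS-Myo-EV libraries, then the second Myo-EV library. OB and both EV groups did not differ beyond the spread between the Myo-EV libraries, as OB lay between them. Only BM lay outside the range of the other libraries. BM stands for 1 library here, in which fewer or more cells of a type and less or more RNA per cell cannot be told apart.

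The ratio of BM to OB was 1.76 on the authors' values, and it depended on what the counts were divided by. It was 2.08 as a share of all counts, 2.96 over the counts of all other entries, 1.51 with median-of-ratios size factors and 1.61 with TMM factors. BM was the higher library under all 5 scalings. Myo-EVs to OB had a ratio of 1.03 on the authors' values, and 1.02, 1.03, 0.841 and 1.05 under the other 4 in the same order, so that its direction turned with median-of-ratios size factors. Myo-EVs to BM had a ratio of 0.587 on the authors' values and between 0.348 and 0.652 under the others. FFSS-Myo-EVs to BM had a ratio of 0.561 on the authors' values and between 0.315 and 0.547 under the others. FFSS-Myo-EVs to OB had a ratio of 0.985 on the authors' values and between 0.748 and 0.946 under the others.

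The makeup of the libraries was read from miRNAs known to mark other cell types, as summed shares of counts. The 4 leukocyte entries (mir-223, mir-142a, mir-150 and mir-342) made up 1.12% of BM, 0.0251% of OB and between 0.00232% and 0.00282% of the EVs. The 2 erythroid entries (mir-451a and mir-144) made up 0.0621% of BM, 5.79e-05% of OB and between 1.66e-04% and 9.9e-04% of the EVs. The 8 mesenchymal entries, led by mir-143, made up 16.4% of OB, 0.867% of BM and between 11.3% and 14.8% of the EVs. Most of this in the EVs was mir-143, and its members differed. mir-143 and mir-145a were higher in each EV library than in OB, whereas the mir-199a, mir-214, mir-204 and mir-218 entries were lower. The mir-199a entries were at 3.05% and 3.08% in OB and between 0.393% and 0.542% in the EVs. The 4 liver and serum entries made up 0.0655% of BM, 0.032% of OB and between 0.0124% and 0.016% of the EVs. The 6 muscle entries made up between 0.0712% and 0.0893% of the EVs, 0.00415% of OB and 0.00297% of BM, and nearly all of this in the EVs was mir-206. Of the 2 mir-1a entries, mir-1a-1 was listed at 0 counts in all 4 EV libraries, and mir-1a-2 had 3 and 5 counts in Myo-EVs, with 2 and 0 in FFSS-Myo-EVs. The library with the highest mir-21a share therefore also had the highest summed shares of the leukocyte, erythroid, and liver and serum entries. It had the lowest summed shares of the mesenchymal and muscle entries. The part of these entries in the difference was not tested.

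The question of the main comparison is whether mir-21a changed in the EVs when the C2C12 cells were under FFSS. Its share of counts was 22.1% ± 1.76 (SD, n = 2) in Myo-EVs and 20.4% ± 0.393 (SD, n = 2) in FFSS-Myo-EVs, a difference of -1.64 percentage points, which went to -0.394 with the first Myo-EV library left out and to -2.89 with the second left out. Both FFSS-Myo-EV libraries were below both Myo-EV libraries, but the second Myo-EV library was above the nearest FFSS-Myo-EV library by far less than the replicates of its own group were apart. As a percentage of the counts of all other entries, mir-21a was at 28.4 ± 2.90 (SD, n = 2) in Myo-EVs and 25.7 ± 0.621 (SD, n = 2) in FFSS-Myo-EVs. The normalized expression values were 637260 ± 49472 (SD, n = 2) and 608855 ± 692 (SD, n = 2), a ratio of 0.955, and there the groups overlapped. A two-sided exact permutation test gave p = 0.333 for both shares, the smallest value that 2 libraries against 2 allow, and p = 1.0 for the normalized expression values.

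Across 354 tested entries, whose normalized expression values averaged 10 or more in the EVs, edgeR's quasi-likelihood test with TMM factors called 43 higher in FFSS-Myo-EVs (12.1%) and 65 lower (18.4%) at a Benjamini-Hochberg adjusted p below 0.05. The balance of these calls depended on the scaling, with 54 higher and 39 lower under the authors' constants and 57 and 37 with limma at a pseudocount of 1. Without the first FFSS-Myo-EV library, 15 were called higher and 25 lower, and without the second 19 and 18. mir-21a was not called. Its log2 fold change was -0.19 (SE 0.30, 95% interval -0.78 to 0.39, adjusted p = 0.709 by edgeR's quasi-likelihood test). The SE came from a spread fitted by level over the tested entries and not from mir-21a alone. It rose among the most abundant entries, to 0.26 for mir-143 and 0.28 for let-7i, beside 0.13 for mir-206. With DESeq2 the SE of mir-21a was 0.13 (95% interval -0.44 to 0.06). The edgeR interval spans changes from well below to somewhat above the Myo-EV level, so these libraries do not settle a change of that size. Of the other tested entries, 220 had a higher log2 fold change than mir-21a and 133 a lower one.

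**Figure D3:**
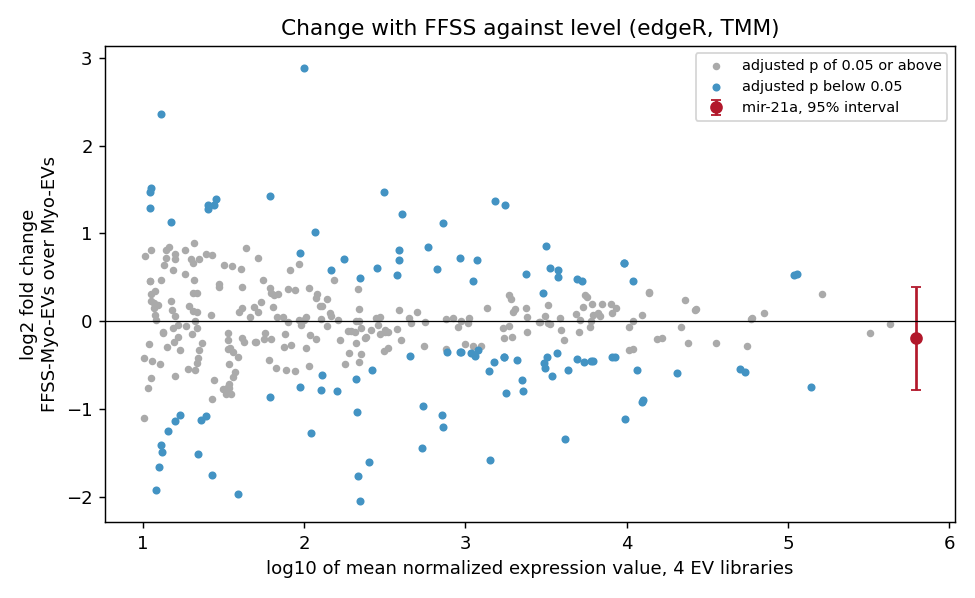
The log2 fold change of FFSS-Myo-EVs over Myo-EVs (vertical axis, edgeR with TMM factors) against the log10 of the mean normalized expression value (horizontal axis) for the 354 tested entries, 1 point each. Blue points have an adjusted p below 0.05, and mir-21a, at the far right, is at -0.19 with a 95% interval that crosses 0.

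The outcome was recomputed with mir-21a taken out of the total it is divided by. With library totals in place of TMM factors, the log2 fold change of mir-21a was -0.11 with mir-21a in the total (adjusted p = 0.713, edgeR) and -0.14 without it (adjusted p = 0.679, edgeR). With TMM factors, it went from -0.19 to -0.21 when mir-21a was left out of the factors and the totals (adjusted p = 0.659, edgeR). Over 12 other scalings, filters and tools that used all 4 EV libraries, the log2 fold change ranged from -0.24 to -0.04, always below 0, and the adjusted p from 0.317 to 0.911. With the second Myo-EV library left out, edgeR called mir-21a at a log2 fold change of -0.25. The Myo-EV group was then the single library with the highest EV share, but the SE also fell, from 0.30 to 0.068. Dropping the other Myo-EV library gave a log2 fold change of -0.12 with a similar SE, 0.067. Dropping the first or the second FFSS-Myo-EV library raised the SE to 0.63 or 0.43. In such fits the spread comes from the group that keeps both of its libraries. At a similar SE, the smaller fold change without the first Myo-EV library gave no call. The call thus rested on both the smaller SE and the larger fold change.

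**Figure D4:**
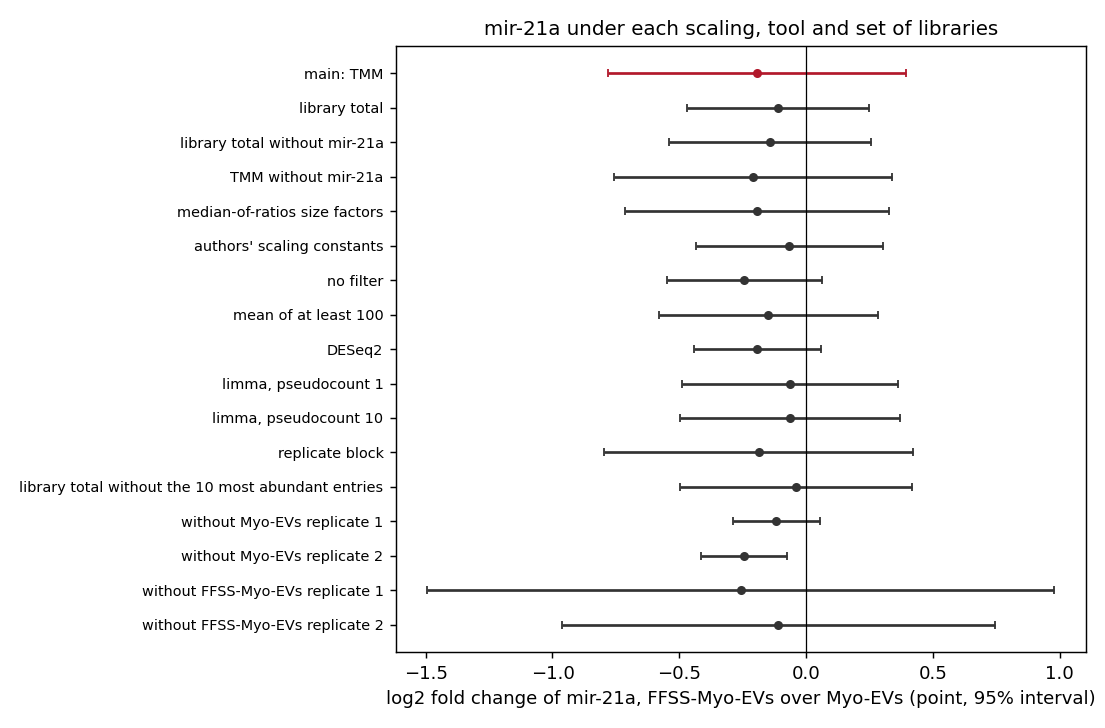
The log2 fold change of mir-21a, FFSS-Myo-EVs over Myo-EVs (horizontal axis; points with 95% intervals), under TMM (red) and 16 other scalings, filters, tools and sets of libraries (black). Each point lies below 0, and the interval stays below 0 only without the second Myo-EV library.

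As the change of mir-21a is relative to the other entries, it was also read against each of them. Of 353 other tested entries, 141 (39.9%) gave a ratio of mir-21a to the entry that was lower in both FFSS-Myo-EV libraries than in both Myo-EV libraries, 62 (17.6%) gave a ratio that was higher in both, and 150 gave ratios that overlapped. The ratio was thus lower under FFSS for more entries than it was higher, and for many it was neither. The exact permutation test cannot give a p below 0.333 for 2 libraries against 2. A separation of this kind therefore often arises by chance. All 353 ratios also share the same mir-21a values, so they are not 353 separate comparisons. The same tally was not made for other entries, so it has no background and no result is drawn from it. Of the 8 reference entries, 0 were called higher and 3 lower by edgeR, beside 12.1% and 18.4% of all tested entries, with a median log2 fold change of -0.04 beside -0.02 over all tested entries. mir-423, whose log2 fold change was -0.75 (adjusted p = 0.00505, edgeR), fell, and so did mir-191 (-0.45, adjusted p = 0.00539, edgeR) and mir-25 (-0.36, adjusted p = 0.0229, edgeR). All 3 were below 0 under each alternative, but the call of mir-25 was lost with library totals and those of mir-191 and mir-25 with the authors' constants, with limma and on a total without the 10 most abundant entries. All 3 calls were lost without either FFSS-Myo-EV library. mir-21a over the geometric mean of the 8 was 240 in OB, 201 in BM, 187 and 135 in Myo-EVs, with 163 and 155 in FFSS-Myo-EVs. On that yardstick the Myo-EV libraries enclosed the FFSS-Myo-EV libraries. mir-423 itself differed most between cells and EVs, mir-21a being 179 times mir-423 in OB and 186 times in BM, but 3.36 to 5.68 times in the EVs.

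The relatives of mir-21a were at a trace of its level. mir-21b had 71 counts in OB, 202 in BM, 50 and 37 in Myo-EVs, with 55 and 51 in FFSS-Myo-EVs. For each 1000000 mir-21a counts this was 63.4 in OB, 73.9 in BM, 74.7 and 73.6 in Myo-EVs, with 90.1 and 92.7 in FFSS-Myo-EVs. The 95% counting intervals overlapped in all 6 libraries. mir-21c had 36 counts in OB, 101 in BM, 25 and 14 in Myo-EVs, with 22 and 20 in FFSS-Myo-EVs, which is 27.8 to 37.3 for each 1000000 mir-21a counts. On normalized expression values the BM library was the highest for all 3. Reads of such near-identical sequences can be assigned to either entry, and the number of mismatches allowed in the matching is not given in the sources used here, so the counts of mir-21b and mir-21c are uncertain. In FFSS-Myo-EVs their log2 fold changes were 0.10 (adjusted p = 0.881, edgeR) and -0.07 (adjusted p = 0.935, edgeR), and that of mir-21c changed sign between alternatives. mir-590, which is also held to share the seed, matched no entry by that name and was not analysed here.

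Other miRNAs known to promote growth were read beside mir-21a: mir-155, mir-221, mir-222 and the mir-17 to mir-92a cluster. All 11 entries were tested, 2 were called higher and 1 lower in FFSS-Myo-EVs, with a median log2 fold change of 0.06 beside -0.02 over all tested entries. Over all tested entries 12.1% were called higher and 18.4% lower, so the list is near the background. mir-155, a miRNA of immune activation, had 859 and 707 counts in Myo-EVs, with 1425 and 1449 in FFSS-Myo-EVs, and rose by 0.70 on the log2 scale (SE 0.13, adjusted p = 9.65e-07, edgeR). mir-221, which represses the cell cycle inhibitor p27, had 2858 and 2537 counts in Myo-EVs, with 4648 and 4081 in FFSS-Myo-EVs, and rose by 0.51 (SE 0.13, adjusted p = 7.4e-04, edgeR). mir-18a fell, with a log2 fold change of -0.66 (SE 0.20, adjusted p = 0.00539, edgeR). mir-21a differed from mir-155 and mir-221 in that its own libraries did not separate on the normalized scale, but the difference between these changes was not tested. mir-155 was called under all 16 alternatives, whereas the calls of mir-221 and mir-18a were lost without either FFSS-Myo-EV library and that of mir-18a also with limma. The 11 entries together made up 0.480% of OB, 2.59% of BM and between 0.930% and 1.06% of the EVs.

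Of 7 entries known from fibrosis, in which mir-21a, mir-199a and mir-214 are known to rise and the mir-29 family to fall, 0 were called in either direction by edgeR's quasi-likelihood test, beside 12.1% higher and 18.4% lower over all tested entries. Their median log2 fold change was 0.05, and the values ranged from -0.72 for mir-29b-2 to 0.39 for mir-29c. Together they made up 6.72% of OB, 0.762% of BM and between 1.09% and 1.41% of the EVs. The sum was thus lowest in BM, where mir-21a was highest, but its members did not share this. The mir-199a and mir-214 entries were lowest in BM, mir-199a-1 at 0.0832% beside 3.05% in OB. Each mir-29 entry was highest in BM, mir-29a at 0.569% beside 0.300% in OB.

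Muscle and blood miRNAs were also read in the EV comparison. Of 4 tested muscle entries, 0 were called higher and 3 lower by edgeR, mir-133a-1, mir-133a-2 and mir-133b, with log2 fold changes of -1.49, -1.92 and -1.75, at counts of 4 to 45, beside 12.1% higher and 18.4% lower over all tested entries. mir-206 was at 0.15 (adjusted p = 0.42, edgeR). mir-451a, the main erythroid miRNA, had 3 and 4 counts in Myo-EVs, with 26 and 16 in FFSS-Myo-EVs, and rose by 2.36 on the log2 scale (adjusted p = 6.79e-05, edgeR). mir-486a and mir-486b, which are also erythroid miRNAs and were added after their values were seen, were at -0.04 (adjusted p = 0.942, edgeR) and 0.04 (adjusted p = 0.935, edgeR), with 1061 and 1109 counts in BM, 116 and 144 in OB, and 76 to 105 in the EVs. mir-122, a liver and serum miRNA, had 6 and 4 counts in Myo-EVs, with 18 and 14 in FFSS-Myo-EVs, and rose by 1.47 (adjusted p = 0.0132, edgeR). The other 3 tested entries of that list were not called, mir-192 at 0.01 (adjusted p = 0.984, edgeR), mir-194-1 at 0.31 (0.523) and mir-194-2 at 0.26 (0.473). Of the other lists, 0 of 1 tested leukocyte entries and 0 of 7 tested mesenchymal entries were called by edgeR, beside the same background. Of these, mir-133b was called under each of its 15 alternatives. The call of mir-133a-2 was lost without the second FFSS-Myo-EV library and with DESeq2. The call of mir-133a-1 was lost in those settings and without either Myo-EV library, that of mir-451a without the first Myo-EV library, and that of mir-122 without either Myo-EV library, with DESeq2 and without the filter. The part of these entries in the change of mir-21a was not tested.

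A large share of mir-21a scales the share of each other entry by the same factor, the part of the library that is left. The other entries held 78.4% of the counts in OB, 55.1% in BM, 76.7% and 79.2% in Myo-EVs, with 79.8% and 79.3% in FFSS-Myo-EVs. Between BM and OB, each other share was therefore multiplied by 0.703, a log2 shift of -0.51, relative to a total without mir-21a. For Myo-EVs against BM the factor was 1.41 and for Myo-EVs against OB it was 0.994. Within the EVs, it was 1.02 for FFSS-Myo-EVs against Myo-EVs, a log2 shift of 0.03, and 0.969 for the first Myo-EV library against the second, a log2 shift of -0.05. mir-21a moved the other shares between the EV groups by less than between the Myo-EV replicates.

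Among 338 entries with at least 10 counts in both OB and BM, the median log2 ratio of BM to OB was 0.57 on shares of all counts and 1.07 on shares without mir-21a. Among 259 entries with at least 10 counts in BM and both Myo-EV libraries, the median log2 ratio of Myo-EVs to BM was 0.21 with mir-21a and -0.29 without it, so the sign of the median depended on that 1 entry. Among 256 entries in OB and both Myo-EV libraries, the median was 0.43 both ways. For FFSS-Myo-EVs against Myo-EVs, among 307 entries, it was 0.03 with mir-21a and -0.01 without it.

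The number of other entries past 2-fold moved with the same factor, which the shares of mir-21a fix, so that the counts show its size and are no separate result. These counts compare libraries, without a replicate check, and took entries with at least 10 counts in one of the groups, with counts under 3 set to 3. For BM against OB, 201 of 526 entries were above 2-fold (38.2%) and 156 below 0.5 (29.7%) on the total with mir-21a, and 281 (53.4%) and 143 (27.2%) on the total without it. With the authors' constants, 172 were above and 164 below. From the first total to the second, 80 entries joined the higher side, 13 left the lower side, and 18 turned from below to above 1. The 5 most abundant of the 80 were let-7g, which went from a ratio of 1.92 to 2.73, let-7f-2 (1.47 to 2.09), let-7f-1 (1.43 to 2.04), mir-27a (1.85 to 2.64) and mir-29a (1.90 to 2.70). The let-7 miRNAs repress growth genes and mir-29a represses collagens. mir-140, a cartilage miRNA, and mir-99a were the most abundant to leave the lower side, from 0.478 to 0.680 and from 0.438 to 0.622.

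For Myo-EVs against BM, 173 of 521 entries were above 2-fold (33.2%) and 215 below 0.5 (41.3%) with mir-21a in the total, and 154 (29.6%) and 256 (49.1%) without it. With the authors' constants, 183 were above and 194 below. Without mir-21a, 41 entries joined the lower side, 19 left the higher side, and 31 turned from above to below 1. The most abundant of them was let-7i, the second entry of the EVs, which went from a ratio of 2.32 to 1.64 and so left the higher side. mir-152 (2.22 to 1.57), mir-100 (2.55 to 1.80) and mir-151 (2.76 to 1.95) left with it, while mir-25 (0.507 to 0.358) joined the lower side. For Myo-EVs against OB, 185 of 510 entries were above 2-fold (36.3%) and 192 below 0.5 (37.6%), and both numbers were the same without mir-21a (36.3% and 37.6%).

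**Figure D5:**
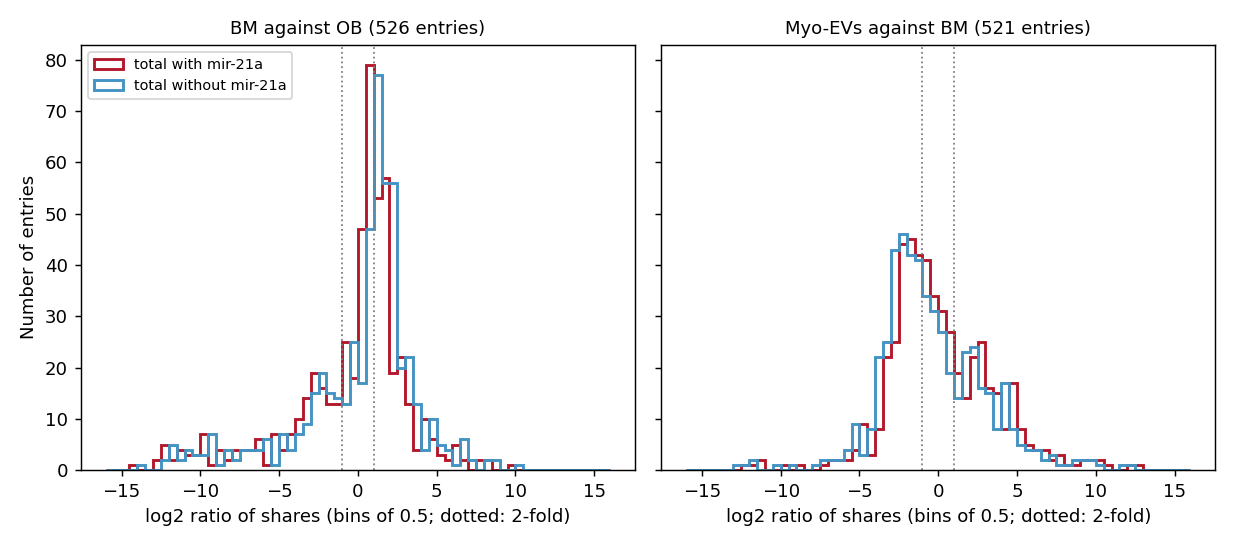
Number of entries (vertical axis) by the log2 ratio of their shares of counts (horizontal axis, bins of 0.5) for BM against OB (left, 526 entries) and Myo-EVs against BM (right, 521 entries), with mir-21a in the total (red) and without it (blue). Without mir-21a the left histogram moves up by 0.51 and the right one down by 0.50, and the dotted lines mark 2-fold.

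Within the EVs, the calls on other entries were nearly the same on either total. With library totals, edgeR called 95 entries with mir-21a in the total and 105 without it, with 95 in common, and the median log2 fold change shifted by -0.03. All 10 that joined were lower in FFSS-Myo-EVs and near the threshold on either side, the most abundant being mir-10a (adjusted p from 0.0721 to 0.035, edgeR), mir-881 (0.0842 to 0.0379), mir-186 (0.0757 to 0.0321), mir-465c-2 (0.0781 to 0.0321) and mir-465c-1 (0.0858 to 0.0352). With TMM factors, 108 were called with mir-21a and 112 without it, with 108 in common. The 4 that joined, mir-31, mir-465a, mir-542 and mir-130b, were lower in FFSS-Myo-EVs, and for mir-31, the most abundant, the adjusted p went from 0.0753 to 0.0472 (edgeR).

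A library in which 1 entry takes 44.9% of the counts has fewer left for the rest. The level that 3 counts stand for was 0.492 per 1000000 counts in BM, the deepest library, 0.579 in OB and between 0.990 and 1.24 in the EVs. Per 1000000 counts of the other entries, it was 0.893 in BM, 0.739 in OB and between 1.24 and 1.57 in the EVs, so that OB and not BM reached lowest among the other entries. Nevertheless BM had the most entries with any count, 751 against 739 in OB, 736 and 685 in Myo-EVs, with 749 and 746 in FFSS-Myo-EVs.

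The entries whose level followed mir-21a most closely over the 6 libraries were mir-128-2, mir-339, mir-362, mir-128-1 and mir-326. The likeness was Pearson's r of log2(normalized expression value + 1) among 245 entries averaging 100 or more. It was 0.987, 0.985, 0.980, 0.978 and 0.964 in that order, and these libraries share their scaling constants. mir-128-2 was at 1010.8 in BM and between 153.9 and 217.8 in the other 5 libraries. mir-339 was at 1550.2 in BM and between 204.9 and 319.2 in the others. Without BM, r was 0.562, 0.621, -0.330, -0.224 and 0.250, so the likeness rested on that library. With BM, 24 entries had an r above 0.9, and without it 0 of the 245 did.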

How the data were processed

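Small RNA of 6 libraries was made from 90 ng of total RNA each with the NEBNext kit. The authors grouped the reads by sequence in CLC Genomics Workbench, matched the groups to miRBase, and deposited raw counts and normalized expression values of 1006 precursor entries. The labels name the mm10 build. The miRBase release, the mismatches allowed and the sharing of reads between copies are not given in the sources used here. The authors' normalized expression values are a signal scaled from those counts, with 1 constant per library, from 0.397 to 1.20.

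From the counts, shares with exact 95% Clopper-Pearson intervals were computed over all entries and over all entries but mir-21a. Total counts ranged from 2414132 to 6092460. FFSS-Myo-EVs were compared with Myo-EVs by the quasi-likelihood test of edgeR 4.0.16 (R 4.3.3), with TMM factors from the 354 entries that averaged 10 or more on the normalized scale, total counts as library sizes, no covariate and Benjamini-Hochberg adjustment. The test had 2 residual degrees of freedom, and its common dispersion was 0.0108. Its prior degrees of freedom were infinite. The spread behind each SE was thus fitted by level over the tested entries and was not the entry's own. No source names a batch. OB and BM had 1 library each and no test.

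The alternatives were other scalings (library totals, totals and TMM factors without mir-21a, median-of-ratios size factors, the authors' constants), no filter or a mean of at least 100, DESeq2 1.42.0, limma 3.58.1 with pseudocounts of 1 and 10, the replicate number as a block, and each EV library left out. A total without the 10 most abundant entries was added after seeing the data. The entry, the miRNA lists (relatives of mir-21a, growth, fibrosis, reference, muscle, leukocyte, erythroid, mesenchymal, liver and serum) and the tests were chosen with earlier results of these data known. The entries named are mir-21a, the next entries by mean share, the second entry of each library, list members, the 5 most like mir-21a, and the most abundant entries whose call or 2-fold place changed when mir-21a left the total. mir-590 matched no entry by that name and was not analysed here. mir-486a and mir-486b, which the list names as mir-486, were added after their values were seen and are in no sum over the list. Positions and sequences came from GENCODE M21 (GRCm38) and RefSeq (GRCm38.p6).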

Additional observations from a re-analysis of the deposited data

How the results depend on the processing

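For mir-21a in FFSS-Myo-EVs against Myo-EVs, 15 of 16 alternatives gave the same direction and no call. Without 1 EV library at a time, a lone library then being assumed to vary like the others, its log2 fold change ranged from -0.26 to -0.11, and the call was made without the second Myo-EV library (-0.25, adjusted p = 0.047, edgeR). With the replicate block, it was -0.19 (adjusted p = 0.717, edgeR) with 44 entries higher and 66 lower. The numbers are not stated to pair the libraries, and the correlation of the deviations of same-numbered libraries was 0.204 over 2 pairs. The difference in share kept its direction under its 7 alternatives, but its size rested on the Myo-EV libraries. It was -1.64 percentage points with all libraries, -0.394 with the first Myo-EV library left out, -2.89 with the second left out, and -1.32 with 1 entry per name. The number of entries called lower, 65, was 39 with the authors' constants, 37 with limma at either pseudocount and 38 on a total without the 10 most abundant entries, where the numbers called higher were 54, 57, 56 and 61. With library totals the split was 49 higher and 46 lower, with DESeq2 it was 34 and 47. Leaving out EV libraries gave 15 to 51 higher and 18 to 75 lower, the lowest numbers being without a FFSS-Myo-EV library (15 and 25 without the first, 19 and 18 without the second).

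For mir-21a between libraries, the ratios set beside the authors' 1.76 for BM to OB were 2.08 (share), 2.96 (total without mir-21a), 1.51 (median-of-ratios) and 1.61 (TMM). Beside 1.03 for Myo-EVs to OB they were 1.02, 0.841 and 1.05 for share, median-of-ratios and TMM, and 0.974 to 1.09 with 1 Myo-EV library left out. Beside 0.587 for Myo-EVs to BM they were 0.492, 0.348, 0.559 and 0.652 in the order of the first list, and 0.555 to 0.619 with 1 library left out. The number of entries past 2-fold in either direction fell with at least 100 counts in place of 10. It went to 226 from 357 for BM against OB, to 218 from 377 for Myo-EVs against OB and to 214 from 388 for Myo-EVs against BM. At 4-fold, 221 entries were past the threshold for BM against OB, 254 for Myo-EVs against OB and 268 for Myo-EVs against BM. Depth limits mir-21b and mir-21c, whose counts were 14 to 202, and not mir-21a.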
